A study of Danio rerio with 2 samples.

Results

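The genes described here are 10 zebrafish genes read as outputs or mediators of the Yap pathway, among them the pair of muscle ankyrin repeat genes ankrd1a and ankrd1b. They were taken by name from the authors' comparison of Ensembl genes: ctgfa, ctgfb, cyr61, cyr61l1, ankrd1a, ankrd1b, amotl2a, amotl2b, yap1 and wwtr1. Each name matched 1 gene, giving 10 of the 26126 genes listed, and all 10 were among the 24009 genes with at least 10 counts over both libraries. They were chosen by their known link to Yap and with the measured ratios between these libraries in view, so the values below describe them and are no test of them.

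RNA came from hearts of zebrafish of the AB background at 48 hours post fertilization, with 1 library from kctd10 -/- animals and 1 from wild-type animals. The sources used here do not say how many hearts each library holds, or what the kctd10 lesion is. kctd10 encodes an adaptor that carries substrates to the Cullin 3 ubiquitin ligase. The question put to the libraries is how transcript levels in the heart differ between both genotypes.

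Yap1 and Wwtr1 (also called Taz) are transcriptional coactivators that bind no DNA themselves and work through Tead factors. A kinase chain, the Hippo pathway, phosphorylates them and keeps them out of the nucleus, while cell stretch, spreading and low cell density let them in. In the embryonic heart they are studied for growth of the muscle wall and of the outer layer. Among the genes most often read as their output in mammalian cells are those of the secreted matrix proteins Ctgf and Cyr61, of the muscle ankyrin repeat protein Ankrd1 and of angiomotin-like 2, which in turn binds Yap and holds it in the cytoplasm. Ctgf and Cyr61 belong to the CCN family and bind integrins and matrix. Ankrd1 shuttles between the titin filament of the sarcomere and the nucleus and is known to respond to load on muscle.

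Total gene counts were 139099775 for the library labelled mutant and 150001992 for the library labelled wild type. kctd10 itself had 19942 counts in the library labelled mutant, against 8226 in the library labelled wild type, so that its ratio was 2.57 (95% counting interval 2.5 to 2.64), which is opposite to a loss of its transcript. A sequence lesion need not lower the messenger RNA, so this gene does not check the labels. The heart label could be checked only in part: 14 cardiac sarcomere genes summed to 12542 counts per 1000000 (CPM) in the library labelled mutant and 8552 CPM in the library labelled wild type, but 16 skin genes summed to 34759 CPM in the library labelled mutant and 48644 CPM in the library labelled wild type, so both libraries held much RNA of genes known from skin. Many markers of skeletal muscle, notochord and cartilage were lower in the library labelled mutant, and their values stand beside the results below.

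Of the 10 genes, 6 were lower in the library labelled mutant, 0 were higher and 4 met neither condition. A gene counted as lower or higher when the whole 95% counting interval of its ratio lay beyond 1.5-fold. By the same rule 6.66% of all 24009 measured genes were lower and 6.03% higher. The 6 were ctgfa, ctgfb, cyr61, cyr61l1, ankrd1a and ankrd1b, and together they held 56.1 CPM in the library labelled mutant, against 175 CPM in the library labelled wild type. The median log2 ratio of the 10 genes was −1.16, and that of all measured genes was 0.001. With 1 library per genotype each ratio compares 2 libraries and not the genotypes. The intervals speak for counting error alone, and reads amplified by PCR and carrying no molecular identifier can repeat 1 molecule. In bulk RNA, fewer cells of a type and less RNA per cell cannot be told apart.

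**Figure D1:**
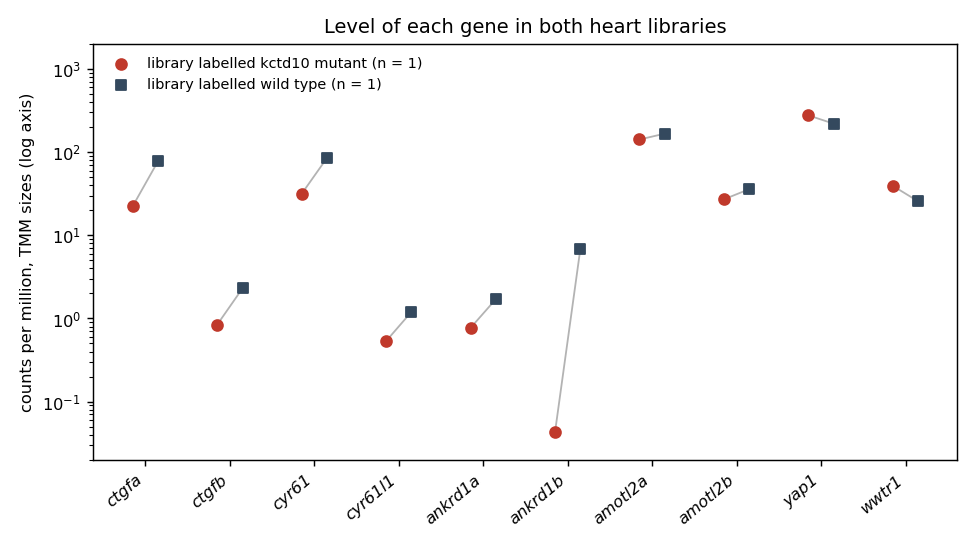
Level of each of the 10 genes in CPM (log axis), with the library labelled kctd10 mutant as circles left of the library labelled wild type as squares, 1 library each and no error bar. The circle lies below the square for 8 genes, farthest for ankrd1b at 0.0428 against 6.85 CPM, and above it for yap1 and wwtr1; heights of different genes are not comparable because the counts are not divided by transcript length.

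Among the genes of secreted matrix proteins, ctgfa (ENSDARG00000042934) was the member with the lowest ratio. It had 3142 counts in the library labelled mutant, against 11579 in the library labelled wild type, or 22.4 against 77.9 CPM. The ratio was 0.287 (0.276 to 0.299), which is 3.48-fold lower in the library labelled mutant. Among all measured genes 2.38% had a lower ratio. In zebrafish embryos ctgfa is known as a gene of the notochord and floor plate as well as of other tissues, so its counts need not come from heart cells.

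cyr61 (ENSDARG00000023062) was the member of the CCN family with the most counts. It had 4418 counts in the library labelled mutant and 12658 in the library labelled wild type, or 31.5 and 85.1 CPM. The ratio was 0.37 (0.357 to 0.383). Lower ratios were found for 3.39% of measured genes. Among genes with at least 10000 counts, as ctgfa and cyr61 have, 3.89% were lower by the 1.5-fold rule.

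The other members of the CCN family were weakly counted. ctgfb (ENSDARG00000070586) had 118 counts in the library labelled mutant and 342 in the library labelled wild type, a ratio of 0.366 (0.294 to 0.452). cyr61l1 (ENSDARG00000035422) had 75 counts in the library labelled mutant and 179 in the library labelled wild type, a ratio of 0.444 (0.334 to 0.584). Both intervals lay below the inverse of 1.5, 0.667, but that of cyr61l1 included 0.5. Among genes with 100 to 1000 counts, 9.96% were lower by the same rule, so calls were more frequent at this depth than among the most counted genes.

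The CCN pairs kept nearly the same balance between their copies. ctgfa held 96.4% of the summed ctgfa and ctgfb counts in the library labelled mutant (95.7 to 97, exact binomial interval) and 97.1% in the library labelled wild type (96.8 to 97.4). cyr61 held 98.3% (97.9 to 98.7) of the counts of its pair in the library labelled mutant and 98.6% (98.4 to 98.8) in the library labelled wild type. The ratio of ctgfa divided by that of ctgfb was 0.786 (exact conditional interval 0.634 to 0.982), and the ratio of cyr61 divided by that of cyr61l1 was 0.833 (0.631 to 1.11), an interval that includes 1. Such comparisons within a pair do not depend on how the libraries are scaled. The labels and headers do not say how reads shared by related copies were counted, so the split within a pair is uncertain and the sum is less so. The summed ratio was 0.29 for the ctgf genes and 0.371 for the cyr61 genes.

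The muscle ankyrin repeat genes differed from each other far more than the CCN genes did. ankrd1b (ENSDARG00000076192) had 6 counts in the library labelled mutant, against 1019 in the library labelled wild type, or 0.0428 against 6.85 CPM. It was 160-fold lower in the library labelled mutant, with an interval from 73.4 to 438-fold. A lower ratio was found for 20 of all 24009 measured genes and for 0 of the 14685 genes counted at least 1000 times. ankrd1b, with 1025 counts over both libraries, met that limit only through the library labelled wild type. Its rank among those genes is therefore a description and no support. Among genes with 1000 to 10000 counts, 6.51% were lower by the 1.5-fold rule. Its 6 remaining counts set the width of the interval, since the count in the library labelled wild type is known much more closely.

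ankrd1a (ENSDARG00000075263) had 108 counts in the library labelled mutant and 254 in the library labelled wild type, a ratio of 0.45 (0.356 to 0.566). Its decrease was of the size seen in the CCN genes. It held 94.7% of the counts of the ankrd1 pair in the library labelled mutant (88.9 to 98) and 20.0% in the library labelled wild type (17.8 to 22.3). The ratio of ankrd1a divided by that of ankrd1b was 72 (31.5 to 203). The copy with most of the counts was therefore ankrd1a in the library labelled mutant and ankrd1b in the library labelled wild type, without regard to the lengths of their transcripts. The pair summed to 114 counts in the library labelled mutant and 1273 in the library labelled wild type, a ratio of 0.0949.

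**Figure D2:**
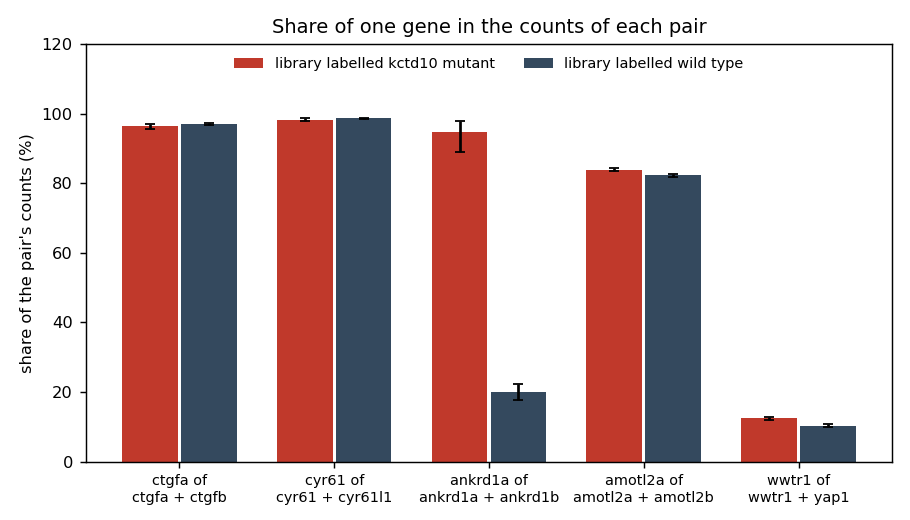
Share of the first-named gene in the summed counts of each pair, in percent, with the library labelled kctd10 mutant left of the library labelled wild type and 95% exact binomial intervals as error bars. The ankrd1a share was 94.7% in the library labelled mutant and 20.0% in the library labelled wild type, while the shares of the other pairs lay within a few percentage points of each other.

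The genes nearest to ankrd1b in log2 ratio, among the 16597 named genes with at least 500 counts, were CU137681.3, si:ch211-255g12.6, cmn, myhz2 and rho. No candidate had a lower ratio than ankrd1b, which met that limit only through the library labelled wild type. Likeness here is the difference in log2 ratio between 2 libraries, from 0.13 for CU137681.3 to 1.90 for rho. cmn, a matrix gene known from the zebrafish notochord, had 50 counts in the library labelled mutant and 4005 in the library labelled wild type. myhz2, a fast skeletal myosin gene, had 350 counts in the library labelled mutant and 24825 in the library labelled wild type. rho, the rod photoreceptor pigment gene, had 15 in the library labelled mutant and 650 in the library labelled wild type.

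The angiomotin-like genes, which encode junction proteins that bind Yap, differed little between the libraries. amotl2a (ENSDARG00000061923) had 19866 counts in the library labelled mutant and 24766 in the library labelled wild type, or 142 and 167 CPM. The ratio was 0.85 (0.834 to 0.866). amotl2b (ENSDARG00000061948) had 3808 counts in the library labelled mutant and 5338 in the library labelled wild type, with a ratio of 0.756 (0.725 to 0.788). Both intervals lay below 1 and inside the 1.5-fold limits. The amotl2a share of the pair was 83.9% in the library labelled mutant and 82.3% in the library labelled wild type, and the ratio of amotl2a divided by that of amotl2b was 1.12 (1.07 to 1.18). Among all measured genes 28.3% had a lower ratio than amotl2a and 19.3% a lower one than amotl2b.

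The genes of the coactivators themselves had ratios above 1 and met neither condition. yap1 (ENSDARG00000068401) had 38821 counts in the library labelled mutant and 32668 in the library labelled wild type, or 277 and 220 CPM. The ratio was 1.26 (1.24 to 1.28), but it turned to a log2 ratio of −0.18 when the cardiac sarcomere genes set the scale. wwtr1 (ENSDARG00000067719) had 5521 counts in the library labelled mutant and 3812 in the library labelled wild type, with a ratio of 1.53 (1.47 to 1.6), the only interval that crossed the upper limit of 1.5. Its log2 ratio was 0.62, and 0.10 under the sarcomere scaling. wwtr1 took 12.5% (12.1 to 12.8) of the counts of both coactivator genes in the library labelled mutant and 10.4% (10.1 to 10.8) in the library labelled wild type. Messenger RNA counts do not show the phosphorylation or the place of Yap1 and Wwtr1 in the cell.

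**Figure D3:**
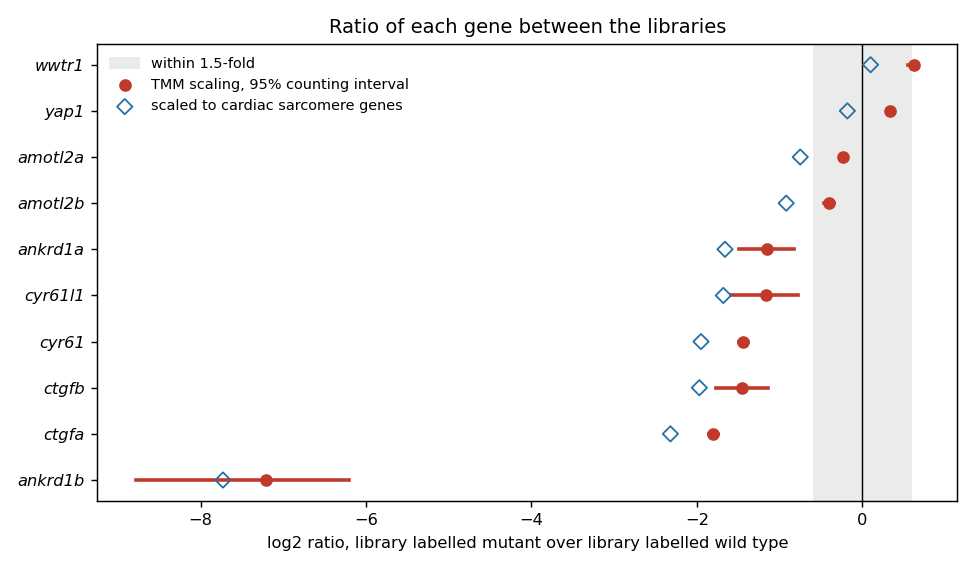
Log2 ratio, labelled mutant over labelled wild type, for each gene, ordered from highest to lowest, with 95% counting intervals as bars, the range within 1.5-fold in grey and the value under scaling to the cardiac sarcomere genes as diamonds. The intervals of 6 genes lie left of the grey range under the first scaling, amotl2a and amotl2b join them under the second, and yap1 changes side.

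Scaling changed the count of lower genes, while the order of the ratios stays the same by construction under any scaling of 2 libraries. When every ratio was shifted by −0.52 on the log2 scale, so that the median of the 14 cardiac sarcomere genes was 0, 8 of the 10 genes were lower and 0 higher. Under that scaling 27.6% of all measured genes were lower and 2.2% higher, a split of 6630 lower and 528 higher genes, against 1600 lower and 1447 higher genes with TMM, the trimmed-mean scaling used elsewhere. amotl2a and amotl2b then had log2 ratios of −0.75 and −0.92. At a limit of 2-fold, 4 of the 10 genes were lower, ctgfa, ctgfb, cyr61 and ankrd1b, against 2.82% of all genes, while 0 of the 10 and 2.64% of all genes were higher.

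**Figure D4:**
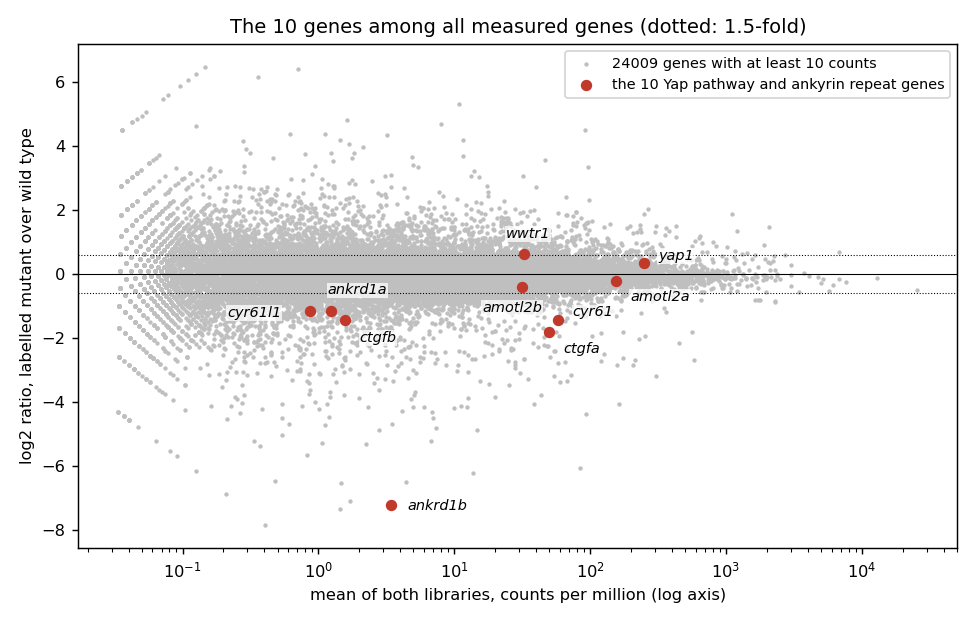
Log2 ratio, labelled mutant over labelled wild type, against the mean of both libraries in CPM (log axis), for 24009 genes in grey and the 10 genes in red, with dotted lines at 1.5-fold. ctgfa, cyr61, ctgfb, cyr61l1 and ankrd1a lie below the lower dotted line, ankrd1b lies near the lower edge of all genes at −7.21, and amotl2a, amotl2b and yap1 lie between the lines.

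The authors' deposited tables gave the same sign for all 10 genes in the Ensembl comparison. That comparison rests on the same 2 libraries, so the shared sign is no separate support. In the authors' deposited table of Ensembl genes the DESeq adjusted p-value was 1.2e-18 for ankrd1b, 0.00129 for ctgfa and 0.0248 for cyr61. That for ctgfb was 0.596 and those of the remaining 6 were 1 in the authors' deposited table. Of the 26126 genes, 0.976% had an adjusted p-value below 0.05 and a lower value in the mutant in the authors' deposited table, and 0.716% a higher one. These p-values were made from 1 library per genotype and so hold no measured spread between animals.

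The authors' deposited table for clusters of UniGene, a catalogue of transcripts, held 5 of the 10 names. Its folds were 0.01 for ankrd1b, 0.86 for amotl2a, 0.76 for amotl2b and 1.28 for yap1, close to the Ensembl ratios. For cyr61 the authors' deposited table of clusters gave 0.98, against 0.368 in the authors' deposited table of Ensembl genes, so the tables differ on cyr61, and the cause was not tested. A cluster named ctgf, which is neither ctgfa nor ctgfb by name, had a fold of 0.29 in the authors' deposited table of clusters.

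No measured gene of the kinases and scaffold proteins upstream of Yap met the 1.5-fold rule. Of 24 measured genes of the Hippo kinases and their upstream regulators 0 were lower and 0 higher, with a median log2 ratio of −0.04 and a range from −0.65 to 0.33. Over all measured genes 6.66% were lower and 6.03% higher, so a list of this length may hold few such genes. The most counted gene of the list, the polarity gene scrib, had 22822 counts in the library labelled mutant and 24852 in the library labelled wild type. Its ratio was 0.973 (0.955 to 0.99). Of the kinase genes, named here after their values were seen, stk3 had 13291 counts in the library labelled mutant and 14384 in the library labelled wild type. lats1 had 5662 counts in the library labelled mutant and 7493 in the library labelled wild type, and lats2 had 10315 in the library labelled mutant and 11274 in the library labelled wild type. Under the sarcomere scaling the median of this list was −0.56 and 8 of its genes were lower, while 27.6% of all measured genes were lower under that shift.

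Of 8 measured genes of the DNA-binding Tead factors and the Vgll cofactors, which bind Tead, 0 were lower and 0 higher, with a median log2 ratio of 0.22. Over all measured genes 6.66% were lower and 6.03% higher, so a list this short says little. The sarcomere scaling gave 1 lower, 0 higher and a median of −0.29, beside 27.6% lower and 2.2% higher over all measured genes. tead1a, the most counted of the list, had 6524 counts in the library labelled mutant and 5946 in the library labelled wild type, a ratio of 1.16 (1.12 to 1.2).

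Most other genes known as Yap and Tead targets in mammals lay inside the limits. Of 29 measured, 2 were lower and 2 higher, with a median log2 ratio of −0.03 and a mean of 0.04. Such counts are near the shares over all measured genes, 6.66% lower and 6.03% higher. The lower ones were f3b and f3a, copies of the gene of tissue factor, which starts blood clotting. f3b had 1500 counts in the library labelled mutant and 6692 in the library labelled wild type, a ratio of 0.237 (0.224 to 0.251), and f3a had 1150 in the library labelled mutant and 2488 in the library labelled wild type, a ratio of 0.49 (0.456 to 0.525). Among the higher ones was ccdc80, a matrix protein gene, with a ratio of 2.84 (2.74 to 2.94). ccnd1, the cyclin D1 gene and the most counted of the list, had a ratio of 1.23 (1.22 to 1.24). Under the sarcomere scaling 10 genes of this list were lower and its median was −0.54, while 27.6% of all measured genes were lower.

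Few other genes of the members' families were measured, and most were weakly counted. Of 5 other measured CCN genes 0 were lower and wisp2 was higher. Over all measured genes 6.66% were lower and 6.03% higher, so a list of 5 says little. wisp2 had 171 counts in the library labelled mutant and 37 in the library labelled wild type, a ratio of 4.9 (3.42 to 7.19). The paralogue cyr61l2 had 521 counts in the library labelled mutant and 595 in the library labelled wild type, a ratio of 0.928 (0.823 to 1.05). The median log2 ratio of these 5 was −0.11, while their mean was 0.36. ankrd2, another muscle ankyrin repeat gene, named after its values were seen, had 3 counts in the library labelled mutant and 8 in the library labelled wild type, and no difference was detectable at this depth.

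A list of muscle ankyrin repeat relatives and titin-linked partners, which also holds ankrd2 and the calsequestrin gene casq2, went both ways. Of 14 measured, 3 were higher and 1 lower, with a median log2 ratio of 0.23, beside 6.03% higher and 6.66% lower over all measured genes. The sarcomere scaling gave 1 higher and 4 lower and a median of −0.29, beside 2.2% higher and 27.6% lower over all measured genes. The titin gene ttna had 38375 counts in the library labelled mutant and 45790 in the library labelled wild type, a ratio of 0.888 (0.876 to 0.9). The calpain gene capn3a was 3.1-fold higher (3.02 to 3.19) and its copy capn3b had a ratio of 0.515 (0.438 to 0.604). trim55b, a ubiquitin ligase gene of the sarcomere, and palld, a gene of an actin-crosslinking protein, had ratios of 1.95 and 1.58.

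Another list held genes of the Mrtf and Srf regulators, which respond to actin, and genes driven by them, which overlap with Yap targets in mammals. Of 17 measured, regulators included, 4 were higher and 1 lower, with a median log2 ratio of 0.35. Over all measured genes 6.03% were higher and 6.66% lower. The sarcomere scaling gave 1 higher and 4 lower and a median of −0.17, beside 2.2% higher and 27.6% lower over all measured genes. tagln, a smooth muscle actin-binding gene, had 4928 counts in the library labelled mutant and 1548 in the library labelled wild type, a ratio of 3.37 (3.18 to 3.57). fhl2b, a LIM domain gene, had 75 counts in the library labelled mutant and 426 in the library labelled wild type, with a ratio of 0.187 (0.144 to 0.239).

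Immediate early genes, which like CTGF and CYR61 respond quickly to serum and stress in mammalian cells, were lower in the library labelled mutant. Of 26 measured, 20 were lower and 0 higher, with a median log2 ratio of −1.52. By the same rule 6.66% of all measured genes were lower and 6.03% higher. Scaled to the cardiac sarcomere genes, 24 of the 26 were lower and 0 higher, beside 27.6% and 2.2% of all measured genes. The immediate early genes summed to 1604 CPM in the library labelled mutant and 4197 CPM in the library labelled wild type. That is a ratio of 0.382, beside 0.332 for the summed CCN members. fosb had 1202 counts in the library labelled mutant and 26679 in the library labelled wild type, and junbb, the most counted, had 23246 in the library labelled mutant and 110521 in the library labelled wild type. Whether what moved these genes had a part in the ratios of the CCN genes was not tested.

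Many markers of other tissues were also lower in the library labelled mutant. With TMM scaling 6.66% of all measured genes were lower and 6.03% higher. Of 40 skeletal muscle genes 33 were lower and 0 higher, with a median log2 ratio of −2.60. Their summed level was 1687 CPM in the library labelled mutant and 4849 CPM in the library labelled wild type, a ratio of 0.348. The most counted of them, acta1b, had 599 CPM in the library labelled mutant and 695 CPM in the library labelled wild type. It weighs heavily in these sums, as does ckma, with a log2 ratio of −0.28, and neither met the 1.5-fold rule. Of 11 notochord genes 6 were lower and 1 higher, with a median log2 ratio of −1.38. Their sums were 500 CPM in the library labelled mutant and 803 CPM in the library labelled wild type, a ratio of 0.623. Of 13 cartilage and neural crest genes 6 were lower and 0 higher, with sums of 464 CPM in the library labelled mutant and 960 CPM in the library labelled wild type, a ratio of 0.483. The gene col2a1a was counted in both the notochord and the cartilage list. It had 104 CPM in the library labelled mutant and 401 CPM in the library labelled wild type, and weighs heavily in both sums. cav1, the most counted gene of the notochord list, had 312 CPM in the library labelled mutant and 230 CPM in the library labelled wild type. It weighs heavily in the notochord sums too, in the direction opposite to col2a1a. No matched marker of any of these lists was at 0 in either library. The part of these tissues in the ratios of ctgfa, cyr61 and the ankrd1 genes was not tested, and dissection and genotype cannot be told apart with 1 library each. When the skeletal muscle median was set to 0, ankrd1b was the 1 lower gene among the 10, at a log2 ratio of −4.61, and the other 9 were higher. Under that scaling 0.233% of all measured genes were lower and 94.9% higher.

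Lists of heart and skin genes were counted in the same way, while 6.66% of all measured genes were lower and 6.03% higher. Of the 14 cardiac sarcomere genes 6 were higher and 1 lower, with a median log2 ratio of 0.52 and summed levels in the ratio 1.47, and the sarcomere scaling gave 1 higher and 2 lower. Of 15 endothelial and endocardial genes 1 was higher and 4 lower, with a median of −0.01 and a ratio of sums of 0.971. Of 5 epicardial genes 4 were higher and 0 lower, with sums of 141 CPM in the library labelled mutant and 58.1 CPM in the library labelled wild type. Of 16 skin genes 2 were lower and 0 higher, with a median of −0.39 and a ratio of sums of 0.715. The sarcomere scaling gave 13 lower and 0 higher skin genes. Under that scaling 27.6% of all measured genes were lower and 2.2% higher, and the cardiac sarcomere median was 0 by construction. Each of the 6 lower members had a smaller ratio than the sums of these heart and skin lists. That was fixed by the rule that picked the 6, since the ratios of all these sums lay above its limit of 0.667. Single genes in these lists also had small ratios. krt15, 1 of the 2 lower skin genes, had 0.443, and tnni1al, the 1 lower cardiac sarcomere gene, had 0.15. The sums of the skeletal muscle and immediate early lists, with ratios of 0.348 and 0.382, lay below some of the 6. The median log2 ratio of the skeletal muscle list, −2.60, lay below those of all the 6 but ankrd1b. The part of heart and skin cells in the members' ratios was not tested.

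**Figure D5:**
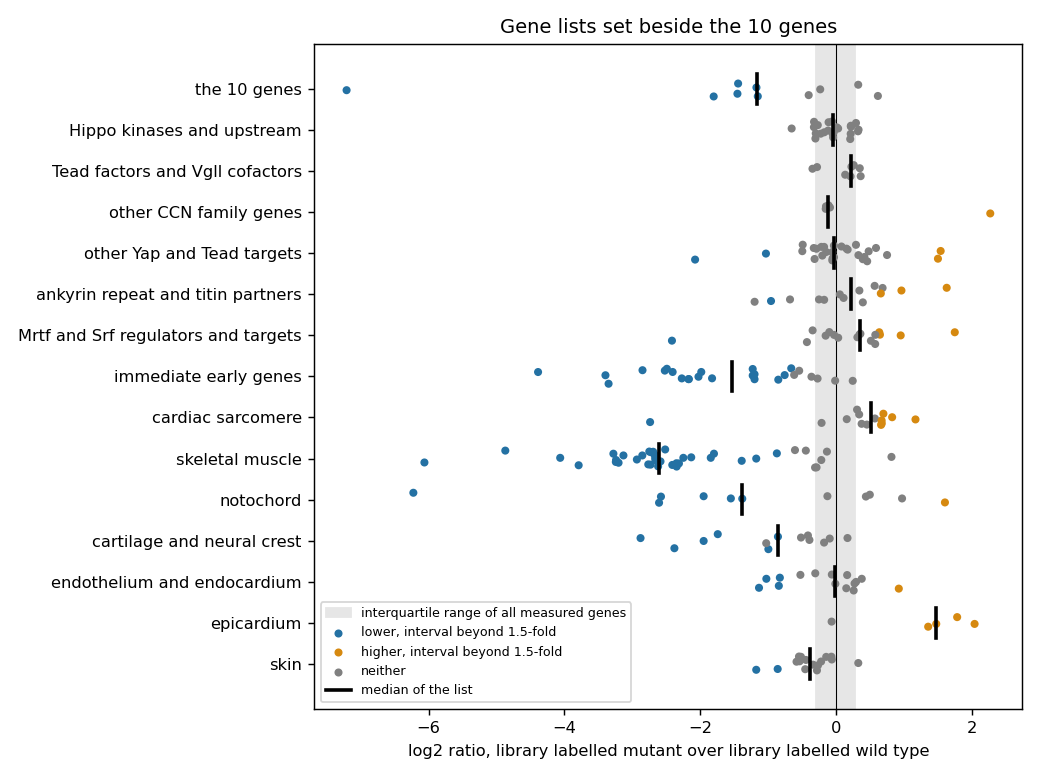
Log2 ratio, labelled mutant over labelled wild type, for the 10 genes in the top row and for the measured genes of 14 lists below, with each list's median as a black bar and the interquartile range of all measured genes in grey. The median of the 10 genes, −1.16, lies between those of the notochord list, −1.38, and the cartilage and neural crest list, −0.85. The medians of the immediate early, Hippo and Tead lists are −1.52, −0.04 and 0.22.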

How the data were processed

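The count table that the authors deposited holds raw, unscaled counts of Ensembl genes for 1 library of each genotype, per the file headers. TopHat, DESeq and build Zv9 are named in the submitters' processing notes. Counter, annotation release and strand use were not stated. The authors' deposited Ensembl comparison holds folds, log2 folds, p-values and adjusted p-values, per the file headers, and their deposited UniGene comparison holds folds and log2 folds. A further 7 columns of values, named after no sample, were left out. The count line naming no gene, 9.17% of counts in the library labelled mutant and 9.21% in that labelled wild type, stayed out.

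Libraries were scaled by TMM (edgeR 4.0.16, R 4.3.3) over genes with at least 10 counts. Ratios have exact 95% Clopper-Pearson intervals, and log2 ratios have 0.5 added to each count. No test between genotypes was run. Alternatives were library totals, DESeq2 (1.42.0) size factors, upper-quartile scaling, TMM leaving out the 100 genes with most counts, shifts to cardiac sarcomere and skeletal muscle genes, other fold, count and interval limits, the authors' folds, and means in place of medians.

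The members, the 14 lists and the rules were chosen with earlier results of these data known. Of 276 list entries 239 (86.6%) matched a gene, by the names in the authors' table and then by a current name table. Genes named beside the members are, in every list, at most 3 higher and 3 lower genes with at least 50 counts and the interval bound farthest from no change, the most counted gene, and the 5 nearest to ankrd1b. Named genes of the marker lists are mostly given as counts and sums. A further gene that the rule names is not reported here. In counts simulated for this comparison, with 200 genes changed among 24006 in the step, 69.4% of genes lowered to 0.5 and 87.5% of those lowered to 0.25 of their level met the rule, as did 6 unchanged genes. These counts held counting noise alone, so they say nothing of false calls between real libraries.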

Additional observations from a re-analysis of the deposited data

How the results depend on the processing

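The 6 lower genes stayed lower by the 1.5-fold rule under library totals, DESeq2 size factors and upper-quartile scaling. So they did with TMM leaving out the 100 genes with most counts and with 99% intervals. Of these scalings library totals moved the log2 ratios most, by 0.026. Such shifts are too small to change any call of the 6, so these scalings add no support. The 6 also stayed lower under either count limit and the sarcomere scaling, where this outcome was fixed in advance. All 6 had more counts than either limit asks, and the sarcomere shift lowers every ratio. Scaling to the cardiac sarcomere genes gave 6630 lower and 528 higher genes in all. A limit of 2-fold gave 677 lower and 635 higher genes, and the calls of cyr61l1 and ankrd1a were lost. Shifting all ratios by 2.60 so that the skeletal muscle median was 0 gave 56 lower and 22790 higher genes in all, and 1 lower and 9 higher among the 10. Under it the log2 ratios of ctgfa (0.80), ctgfb (1.15), cyr61 (1.17), cyr61l1 (1.44) and ankrd1a (1.45) were above 0. These changes follow from the construction of the shifts and of the limit. The share of a gene within its pair does not depend on scaling. No paired analysis was possible because each genotype has 1 library, and no library could be left out. Depth limits ankrd1b in the library labelled mutant, where 6 counts leave an interval from 73.4 to 438-fold.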

Other observations

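Of 11 pairs of a and b copies in 3 lists (titin-linked, Mrtf and Srf, skeletal muscle), 4 differed by more than 1 between the log2 ratios of their copies and 7 by less, a limit and a tally chosen after the values were seen. The 4 were fhl2, capn3, ckm and casq1, and the pairs that differed less included ttna and ttnb, with log2 ratios of −0.17 and −0.25, and actn3a and actn3b, with −2.66 and −2.73. The LIM domain gene fhl2a had 30809 counts in the library labelled mutant and 21799 in the library labelled wild type, a log2 ratio of 0.58, while fhl2b had 75 in the library labelled mutant and 426 in the library labelled wild type, a log2 ratio of −2.41. capn3a had 20405 counts in the library labelled mutant and 6964 in the library labelled wild type, a log2 ratio of 1.63, and capn3b had 231 in the library labelled mutant and 475 in the library labelled wild type, a log2 ratio of −0.96. The flow-responsive genes klf2a and klf2b of the endothelial list were both lower, with 3547 and 12201 counts in the library labelled mutant, against 7640 and 28328 in the library labelled wild type. They were picked from a list of 15 genes, of which 4 were lower and 1 higher, beside 6.66% lower and 6.03% higher over all measured genes. The median log2 ratio of that list was −0.01, so this pair does not stand for it.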
